A study of Arabidopsis thaliana with 6 samples.

Results

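Clade III of the plant SWEET family holds the transporters that let sucrose out of cells, and Arabidopsis thaliana has 7 of them, SWEET9 to SWEET15. The genes were chosen by symbol, and a gene was used where a probe set of the ATH1 array is annotated to it alone. 6 of the 7 were measured, each by 1 probe set, out of 13356 genes with such a probe set. SWEET15 (AT5G13170) is listed in RefSeq under its older symbol SAG29, was recognised by the RefSeq synonym, and was linked to its probe set by the Entrez identifier of that entry. SWEET12 (AT5G23660), the close relative of SWEET11, had no such probe set in the annotation used here and was not analysed. None of the 6 probe set identifiers carries the suffix that marks probes shared between transcripts.

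SWEET proteins move sugars down a concentration gradient across a membrane without spending energy, so they work as exits or entries depending on where the sugar is. In leaves, SWEET11 and SWEET12 release sucrose from phloem parenchyma cells into the cell wall space, from which proton-coupled symporters such as SUC2 load it into the phloem for export to roots and young organs. Other clade III members act in nectaries, anthers, seeds and ageing leaves.

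Transcript levels were measured with single-colour oligonucleotide arrays, 1 array per sample, in 2 groups of 3. The first group is SPT4-R3, line 3 of plants carrying an RNA interference construct against SPT4, whose protein pairs with SPT5 on elongating RNA polymerase II. The second is wild type. Both are in the Columbia-0 background, were grown on solid medium at 16 h light and 8 h dark until 10 days after stratification, and gave their aerial parts 2 h after lights on. SPT4-R3 is a single line, with the promoter of its construct and the number of plants per sample not given in the sources used here. The labels call the samples biological replicates without naming separate sowings or plants. P-values therefore reflect the spread among these 6 samples alone, which may be technical.

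Values are log2 signals. Over 22746 plant probe sets the correlation between arrays was 0.998 to 0.999 within a genotype and 0.976 to 0.977 across genotypes. The targeted gene SPT4-1 (AT5G08565) read 5.0, 4.89 and 4.97 in SPT4-R3, against 5.79, 6.05 and 6.03 in wild type. The trp control probe sets, which have no target in plant RNA and so show the signal near background, read 3.46 to 3.84 over the 6 arrays. The lower quartiles of the arrays lay at 4.41 to 4.44.

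3 of the 6 measured sucrose exporter genes fell in SPT4-R3, the other 3 did not pass the test, and none was called higher. The genes that fell were SWEET11, SWEET15 and SWEET13, in order of the size of the change. The test was limma's moderated test on all plant probe sets with Benjamini-Hochberg adjustment over all of them and a threshold of 0.05, by which 23.5% of all probe sets were lower in SPT4-R3 and 49.9% were called in either direction. Of all probe sets 26.4% were called higher. At an unadjusted p under 0.05 the counts for the 6 genes by limma were the same, 3 lower and 0 higher. The median difference of the 6 genes was -0.34, against -0.0033 for all 13356 genes. With 6 genes these shares describe the members and do not set them apart from other genes. Without SWEET15, which the annotation does not list under that name, 2 of 5 fell, an option chosen after the data were seen.

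SWEET11 (AT3G48740), the phloem-loading exporter of leaves, was the brightest of the 6 probe sets and the one that changed most. It read 9.81, 9.77 and 9.80 in SPT4-R3, against 11.66, 11.75 and 11.66 in wild type. The arrays of each genotype lay within 0.1 of each other, and the genotypes were far apart. On the log2 scale this was a difference of -1.90 ± 0.0526 (SE, n = 3 arrays each), a 3.72-fold fall, with an adjusted p of 3.14e-09. Its signal ranked above 97.8% of plant probe sets in wild type and still above 90.5% in SPT4-R3, so the transcript was lowered and stayed well above background. Including SWEET11 itself, 137 of the 22746 probe sets, or 0.602%, fell by as much or more. In whole aerial parts, fewer cells of a type and less RNA per cell cannot be told apart.

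SWEET15, known as a senescence-associated gene and as an exporter that helps to fill seeds, had a mid-range signal. It read 6.33, 6.34 and 6.35 in SPT4-R3, against 7.42, 7.52 and 7.44 in wild type. The SPT4-R3 arrays were almost identical and all lay about 1 log2 unit below the lowest wild-type array. The difference was -1.12 ± 0.0523 (SE, n = 3 arrays each), a 2.17-fold fall, with an adjusted p of 8.05e-08. A fall of this size or more was found for 2.32% of the probe sets.

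SWEET13 (AT5G50800), a leaf vein and anther transporter that also carries gibberellin, was dim and fell less. It read 4.69, 4.51 and 4.85 in SPT4-R3, against 5.22, 5.32 and 5.22 in wild type. The genotypes did not overlap, although the SPT4-R3 arrays were more spread (SD 0.170) than the wild-type arrays (SD 0.0577). The difference was -0.57 ± 0.0824 (SE, n = 3 arrays each), a 1.48-fold fall, with an adjusted p of 0.000232. The SPT4-R3 values lay above the trp range and above the lower quartiles of the arrays, but the change did not pass a test against 0.5 log2, where its adjusted p was 1.

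**Figure D1:**
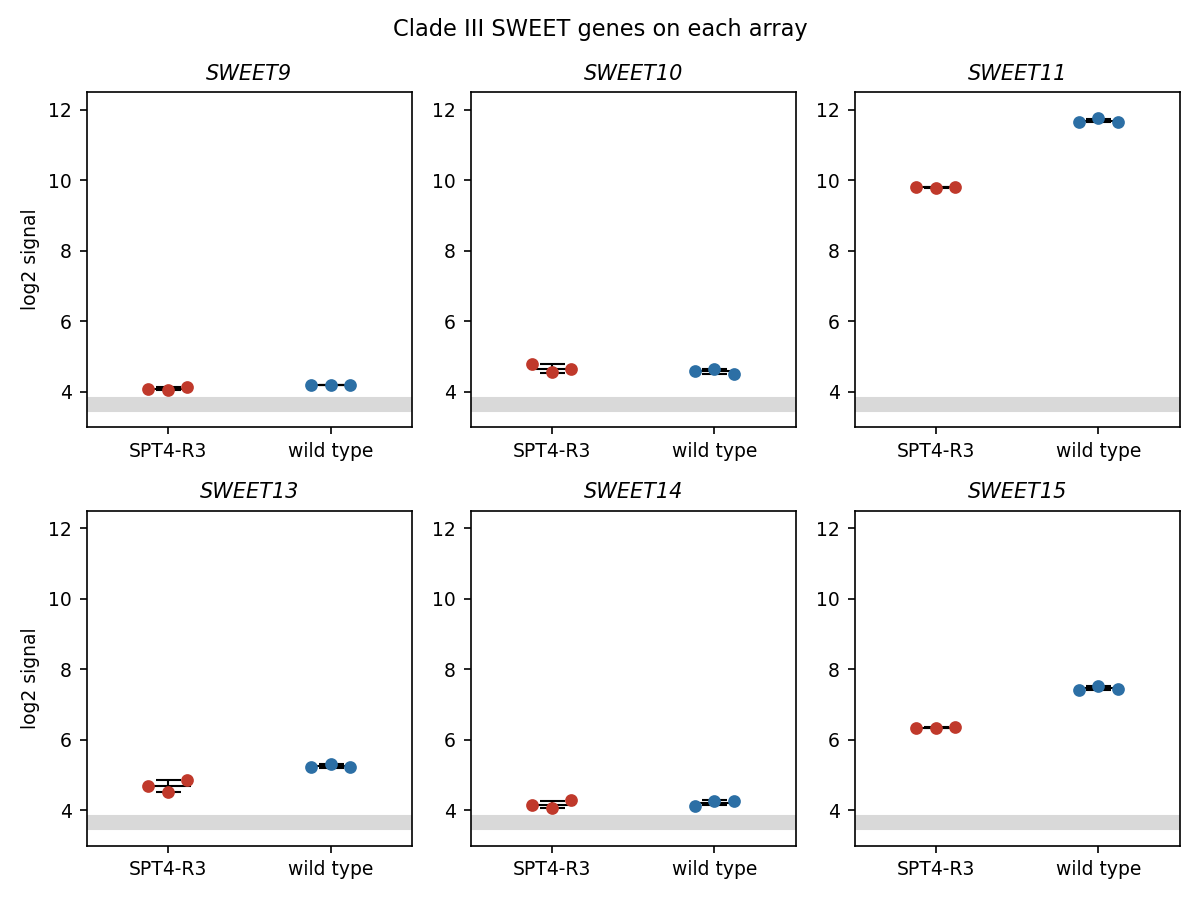
Log2 signal (vertical axis) of the 6 measured clade III SWEET genes in SPT4-R3 (red, left) and wild type (blue, right); points are arrays, bars are the mean with the SD of 3 arrays, and the grey band spans the readings of the trp controls. SWEET11 and SWEET15 show a clear gap between the genotypes, SWEET13 a smaller one, and SWEET9, SWEET10 and SWEET14 stay below 5 with little or no gap.

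The remaining 3 genes were dim in both genotypes and did not pass the test. SWEET14 (AT4G25010), the close relative of SWEET13 in anthers, read 4.14, 4.07 and 4.29 in SPT4-R3, against 4.13, 4.27 and 4.27 in wild type. Its ranges overlapped, with a difference of -0.06 ± 0.0706 (SE, adjusted p = 0.543) and a 95% interval of -0.21 to 0.10. SWEET10 (AT5G50790), a transporter linked to the floral transition, read 4.79, 4.55 and 4.64 in SPT4-R3, against 4.59, 4.64 and 4.51 in wild type.

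The SWEET10 ranges overlapped too, and the difference was 0.08 ± 0.0704 (SE, adjusted p = 0.384) with a 95% interval of -0.08 to 0.24. SWEET9 (AT2G39060), the exporter of nectar secretion, read 4.07, 4.06 and 4.15 in SPT4-R3, against 4.2 on each of the 3 wild-type arrays. These values did not overlap, yet the difference of -0.11 ± 0.0517 (SE) did not pass the test (adjusted p = 0.116, 95% interval -0.22 to 0.009). In all, 4 of the 6 genes had genotypes that did not overlap, as did 55.1% of all probe sets. SWEET9 and SWEET14 lay below the lower quartile of every array, and no detection call was used, so for these genes the intervals bound the change in signal and say little of the transcript.

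The 3 falls differed in size on these arrays, with no overlap between the genotypes, but the test used could not pass the threshold. Such a comparison can be made within each array, as the log2 signal of 1 gene minus that of another, and is then free of the scaling of the arrays. It says whether 2 genes changed unequally, not which transcript is more abundant. For SWEET11 minus SWEET15 the value was 3.43 to 3.48 in SPT4-R3, against 4.22 to 4.24 in wild type, so SWEET11 fell by 0.78 more than SWEET15. SWEET11 minus SWEET13 was 4.95 to 5.26 in SPT4-R3, against 6.43 to 6.44 in wild type. SWEET13 minus SWEET15 was -1.83 to -1.50 in SPT4-R3, against -2.22 to -2.20 in wild type. None of these 3 pairs overlapped, and 13 of the 15 pairs compared showed no overlap. Apart from SWEET9 with SWEET10, each of the 13 holds a gene that fell, so the pairs are not independent and the count largely restates the 3 falls. The share of such pairs over all genes was not computed, and 55.1% of single probe sets did not overlap. For each pair without overlap the exact permutation p was 0.1 (two-sided), the smallest that 3 arrays against 3 allow. It was 0.115 after Benjamini-Hochberg adjustment over the 15 pairs. With this test no pair of 3 arrays against 3 can pass the threshold. SWEET13 was dim in wild type (5.22 to 5.32) and had less room to fall than SWEET11 or SWEET15, so the pairs with SWEET13 do not compare the transcripts.

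Relatives in sequence or position differed in their calls. SWEET13 and SWEET14 are close paralogs, and their within-array difference was 0.44 to 0.56 in SPT4-R3, against 0.95 to 1.09 in wild type, with an exact p of 0.1. SWEET10 and SWEET13 are next to each other among the protein-coding genes of chromosome 5 in the RefSeq annotation. SWEET10 minus SWEET13 was -0.21 to 0.10 in SPT4-R3, against -0.71 to -0.63 in wild type, again with an exact p of 0.1. SWEET13 was called lower and the other 2 were not, but SWEET14 (4.13 to 4.27) and SWEET10 (4.51 to 4.64) were already dimmer than SWEET13 (5.22 to 5.32) in wild type. With the trp readings reaching 3.84, they had less room to fall, so the calls do not compare the transcripts. The pairs with overlapping ranges were SWEET9 with SWEET14 (exact p = 0.6) and SWEET10 with SWEET14 (exact p = 0.4).

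The scaling of the arrays bears on the 4 smaller changes. The bioB, bioC and bioD controls, bacterial RNAs that the standard protocol adds at hybridisation, averaged 8.62 in SPT4-R3 and 9.01 in wild type. Centring each array on them shifted the median of all differences to 0.39, and 91.6% of the calls were then higher in SPT4-R3, in place of 52.9%. That was 17406 of the 22746 plant probe sets called higher and 1589 lower. Counts of genes called higher on this scale, here and below, are to be read against that number. On that scale SWEET11 (-1.50) and SWEET15 (-0.73) were still called lower, SWEET13 at -0.18 was not called (adjusted p = 0.101), and SWEET9 (0.29), SWEET10 (0.47) and SWEET14 (0.34) were called higher. Centring on the poly-A controls, which the protocol adds before labelling, moved the median by 0.15, gave 73.6% of calls as higher, and left SWEET11 (-1.75), SWEET15 (-0.97) and SWEET13 (-0.42) lower and the other members without a call. Relative to the median of all probe sets the members kept their places under both scalings, since such a shift moves all genes alike. Every member had the same SE within a scale, 0.104 with the bioB, bioC and bioD controls and 0.121 with the poly-A controls. A call on these scales therefore reflects only the size of the shifted difference, not the spread of the gene itself.

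**Figure D2:**
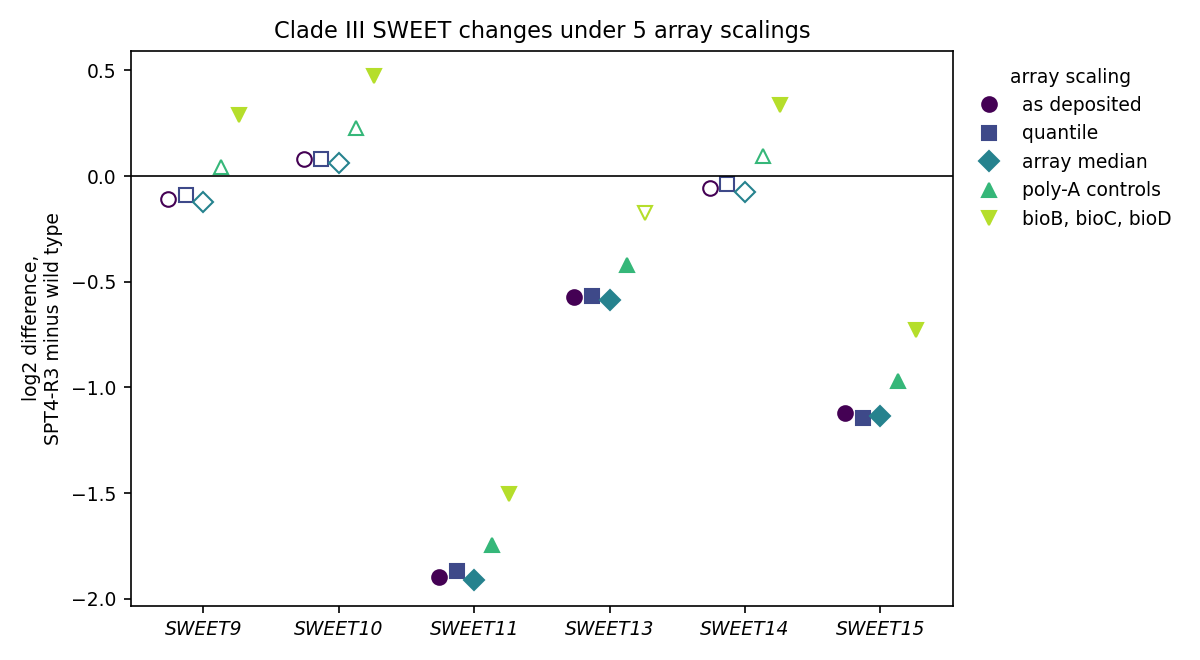
Difference in log2 signal, SPT4-R3 minus wild type (vertical axis), for each clade III SWEET gene under 5 scalings of the arrays; filled symbols passed the limma threshold and open symbols did not. SWEET11 and SWEET15 lie below 0 and filled under each of the 5, whereas SWEET9 and SWEET14 cross 0 on the control-based scales.

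The other SWEET genes, which belong to the clades known mainly for hexose transport, did not move as a block. All 10 were measured, of which 3 rose, 3 fell and 4 did not pass the test, with a median difference of -0.06. SWEET2 (AT3G14770), a vacuolar glucose transporter, fell by 0.95 ± 0.0612 (SE). SWEET4 (AT3G28007) fell by 0.997 ± 0.0907, and SWEET16 (AT3G16690), a vacuolar hexose transporter, fell by 0.92 ± 0.0578. SWEET17 (AT4G15920), the fructose transporter of the vacuole, rose by 0.43 ± 0.0522. The other 2 that rose are added here: SWEET1 (AT1G21460) by 0.83 ± 0.104 (SE), and SWEET8 (AT5G40260), which was dim (wild-type mean 4.01), by 0.16 ± 0.0533. With arrays centred on the hybridisation controls 6 were higher and 3 lower, where 17406 of all 22746 plant probe sets were called higher. SWEET11 and SWEET15 fell by more than any of these 10, but the difference between the clades was not tested.

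**Figure D3:**
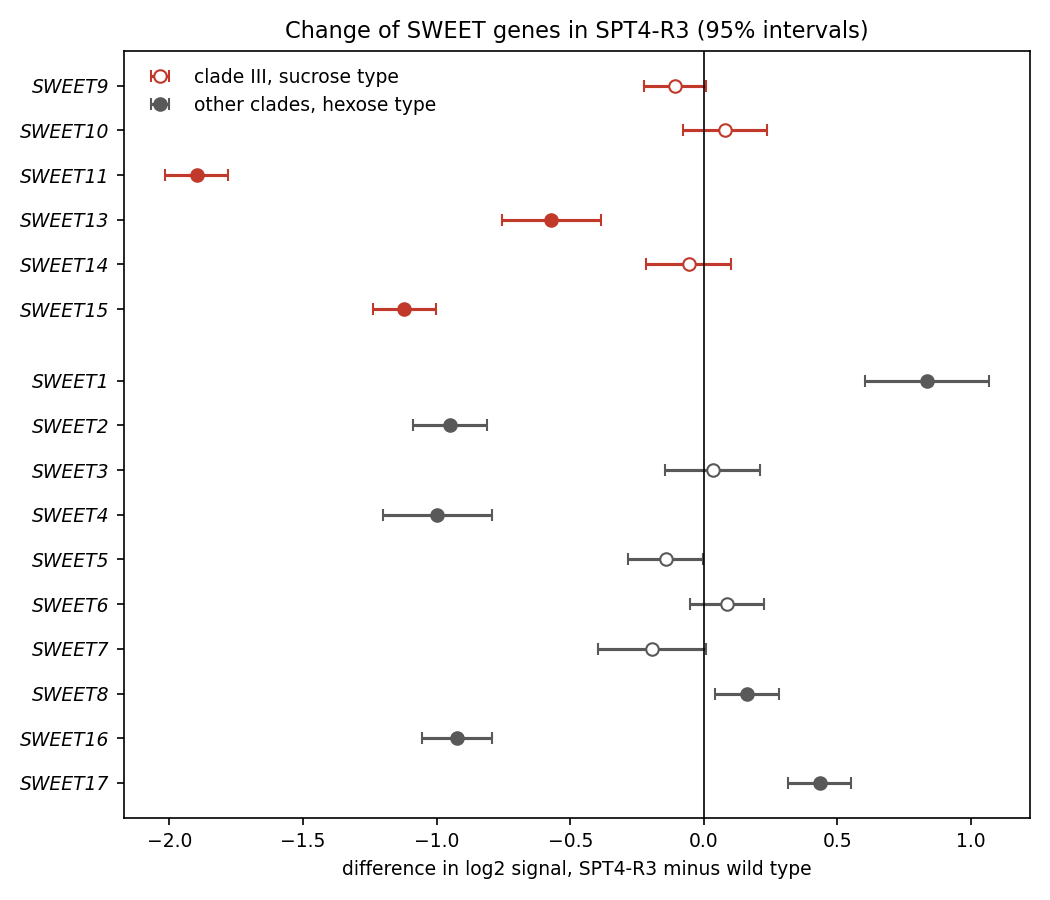
Difference in log2 signal, SPT4-R3 minus wild type (horizontal axis), with its 95% interval from the limma fit for 6 clade III genes (red) and 10 SWEET genes of other clades (grey); filled points passed the test. The clade III points that are filled all lie left of 0, with SWEET11 farthest at -1.90, while the filled grey points lie on both sides.

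Genes that handle sucrose before and after its export had few values here. No single-gene probe set was found for the 9 sucrose symporter entries or the 17 entries for sucrose synthesis. Of 32 for sucrose cleavage only CWINV6 (AT5G11920) had such a probe set. Part of the synthesis and cleavage entries, such as SPSB and CWINV1, matched no gene by symbol. Others, such as SUC2 and SPS1F, matched a gene without a single-gene probe set in the annotation used, which held 14016 probe sets, fewer than the 22746 tested. Whether the array covers any of these genes was not established. CWINV6 was dim and differed by 0.16 ± 0.0582 (SE, adjusted p = 0.0435), a call lost without SPT4-R3 replicate 1 (0.13, adjusted p = 0.136) or 3 (0.15, adjusted p = 0.120) and without wild-type replicate 1 (0.16, adjusted p = 0.0829) or 3 (0.14, adjusted p = 0.120). It was also lost in limma with array medians centred (adjusted p = 0.0657), with trend and robust settings (0.0601) and with the replicate number as a block (0.0867).

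Of 5 other sugar transporters 1 rose and 1 fell. TMT1 (AT1G20840), which loads sugars into the vacuole, rose by 1.27 ± 0.0597 (SE), and SFP2 (AT5G27360), a sugar transporter-like gene, fell by 0.59 ± 0.0711, a call lost on the bioB, bioC and bioD scale (-0.19, adjusted p = 0.0724). On that scale 4 of the 5 were called higher and none lower. Of 6 starch genes 2 rose and 1 fell, whereas all 6 were called higher on the bioB, bioC and bioD scale, and 2 were higher and 0 lower on the poly-A scale. Of all 22746 plant probe sets, 17406 were called higher on the bioB, bioC and bioD scale and 6926 on the poly-A scale. DPE1 (AT5G64860), the plastid enzyme that rearranges maltooligosaccharides, rose by 1.22 ± 0.109 and APL4 (AT2G21590), a large subunit of ADP-glucose pyrophosphorylase, by 0.42 ± 0.0869.

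QQS (AT3G30720), a regulator of starch content, differed by -0.17 (adjusted p = 0.0351), was called higher on the bioB, bioC and bioD scale (0.22, adjusted p = 0.0377), and lost its call without SPT4-R3 replicate 1 or 2 or wild-type replicate 1 or 3 (-0.16, -0.14, -0.14 and -0.18). The QQS call was also lost in limma with trend and robust settings (adjusted p = 0.0592), with the replicate number as a block (0.0640) and on the poly-A scale (-0.021). Of 46 entries for sugar signalling and low sugar response only 2 were measured, and DIN1, DIN10 and KIN10 were not among them. Both measured genes were called higher, as were 26.4% of all probe sets, so they do not stand for the list. BZIP44 (AT1G75390), a transcription factor whose translation responds to sucrose, rose by 1.09 ± 0.0630. BZIP53 (AT3G62420), a relative, differed by 0.18, a call lost without SPT4-R3 replicate 1 (adjusted p = 0.0536) or wild-type replicate 2 (adjusted p = 0.0512).

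Since SWEET15 is also a senescence gene, the senescence list was set beside it. Of its 44 entries 6 were measured, and SAG12, NAP and ORE1 were not among them, so the 6 do not stand for senescence genes as a whole. Of the 6 measured genes 3 rose and 3 fell, with a median difference of 0.037. Over all probe sets 26.4% were called higher and 23.5% lower. The count of falls and the median include WES1 (below), which was among those that fell. On the bioB, bioC and bioD scale 4 were higher and 1 lower, and on the poly-A scale 3 and 1. YLS5 (AT2G38860) rose by 0.70 ± 0.0692 (SE) and SAG101 (AT5G14930), a lipase-like gene of defence and senescence, by 0.47 ± 0.0789. WES1 (AT4G27260), which encodes the auxin-conjugating enzyme GH3.5 and is no marker of ageing, fell by 1.69 ± 0.0756, and NOL (AT5G04900), a chlorophyll b reductase, by 0.20 (adjusted p = 0.00799) but stood at 0.20 on the bioB, bioC and bioD scale. WRKY6 (AT1G62300) and WRKY53 (AT4G23810) were also called and are added here. WRKY6, whose genotypes overlapped, rose by 0.24 ± 0.0856 (SE), and WRKY53, which was dim (wild-type mean 4.44), fell by 0.16 ± 0.0531. Of 4 genes of abscisic acid and osmotic stress 2 fell and 1 rose. COR47 (AT1G20440) fell by 2.38, LTI30 (AT3G50970) by 0.79 and COR15B (AT2G42530) rose by 0.41. Without wild-type replicate 2, and on both control-based scales, 2 genes of this list were called higher.

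Gibberellin genes were included because SWEET13 and SWEET14 also carry that hormone. Of 7 measured 2 rose, 1 fell and 4 did not pass. On the bioB, bioC and bioD scale 6 were higher and 0 lower, and on the poly-A scale 2 and 0. Of all 22746 plant probe sets, 17406 and 6926 were called higher on these scales. The receptor gene GID1A (AT3G05120) rose by 1.04 ± 0.0595 (SE) and NPF3.1 (AT1G68570), a gibberellin transporter, by 0.55 ± 0.0625. GID1B (AT3G63010) differed by -0.19 (adjusted p = 0.0215), stood at 0.20 on the bioB, bioC and bioD scale, and lost its call without SPT4-R3 replicate 1 or 2 or wild-type replicate 1 or 3 (-0.18, -0.16, -0.18 and -0.19). The GID1B call was also lost in limma with trend and robust settings (adjusted p = 0.0520) and on the poly-A scale (-0.044).

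**Figure D4:**
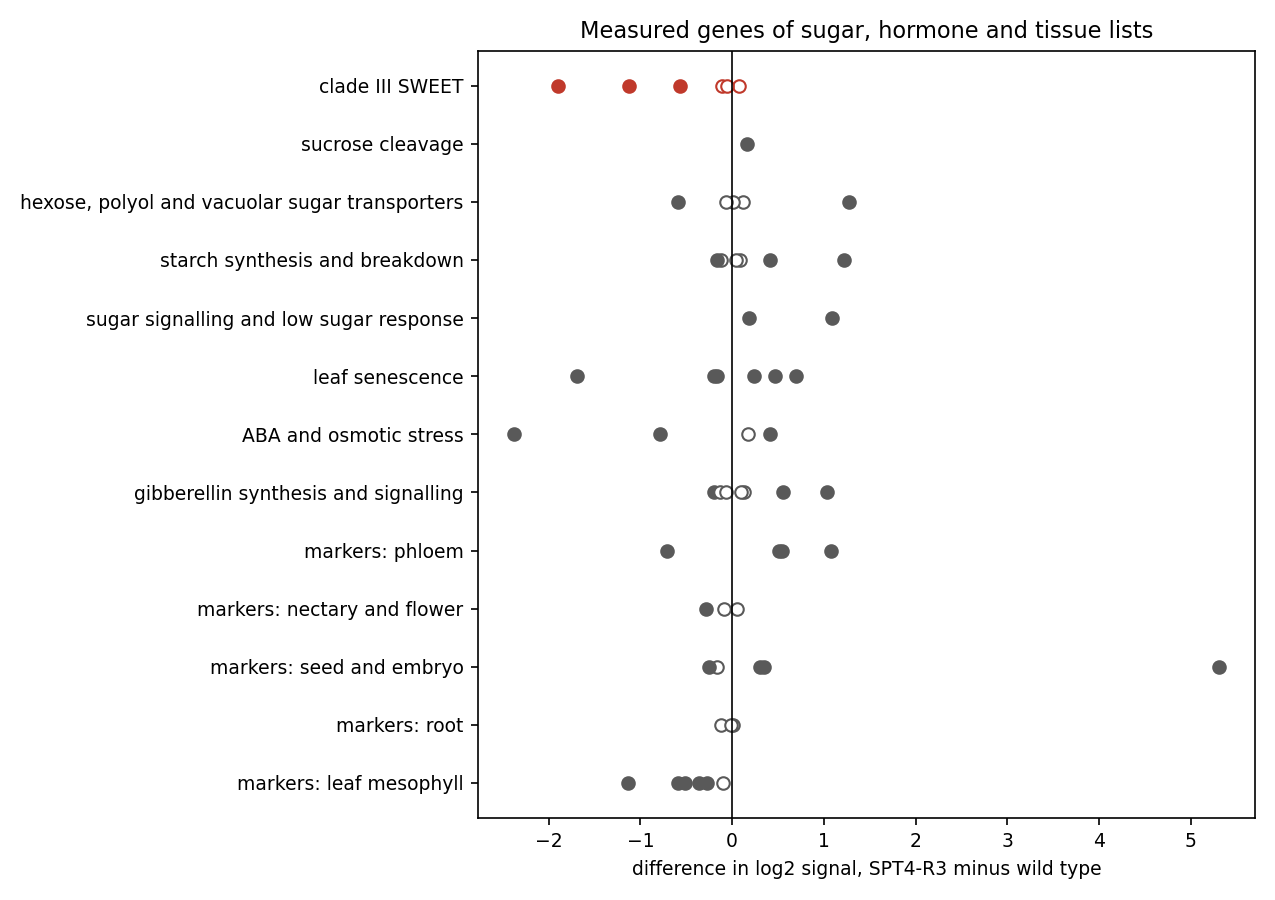
Difference in log2 signal, SPT4-R3 minus wild type (horizontal axis), for each measured gene of the clade III SWEET group (red) and of the 12 other sugar, hormone and tissue lists with a measured gene, apart from the other SWEET genes (grey); filled points passed the limma test. The red filled points lie at -1.90, -1.12 and -0.57, and on this deposited scale most of the other lists hold filled points on both sides of 0.

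Markers of leaf and other tissues were read on the same arrays. For leaf mesophyll, 6 of 38 entries were measured, and LHCB4.1, LHCB4.2 and LHCB4.3 among them belong to 1 family. Of the 6 genes 5 fell and none rose (limma, also at an unadjusted p under 0.05). Over all probe sets 23.5% were called lower. The mean log2 signal of the 6 genes was 12.49 to 12.55 in SPT4-R3, against 13.003 to 13.02 in wild type. LHCB4.2 (AT3G08940) and LHCB4.1 (AT5G01530), light-harvesting proteins, stood at -1.14 and -0.51, PRK (AT1G32060), a Calvin cycle kinase, at -0.59 and SBPASE (AT3G55800), a Calvin cycle phosphatase, at -0.37, and all 4 passed the test. On the bioB, bioC and bioD scale 1 was lower and 1 higher, with SBPASE at 0.027, and on the poly-A scale 3 were lower.

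For phloem, 4 of 50 entries were measured, and the defining companion cell and sieve element genes SUC2, APL and SEOR1 were not among them. CLE44 (AT4G13195) rose by 1.07, CLE41 (AT3G24770), a peptide of the same kind that restrains xylem formation, by 0.54 and OPS (AT3G09070), which acts in protophloem, by 0.51. MYR2 (AT3G04030) fell by 0.71. The mean log2 signal of the 4 was 6.89 to 6.99 in SPT4-R3, against 6.55 to 6.61 in wild type. The 2 peptide genes are made in phloem and its precursors, so the list does not stand for phloem parenchyma, where SWEET11 acts.

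Markers of other organs were few and dim, with 2 exceptions. In the seed and embryo list, M17 (AT2G41260), a late embryogenesis abundant gene, read 8.78, 9.17 and 9.04 in SPT4-R3, against 3.72, 3.61 and 3.72 in wild type. The wild-type values lie within the trp range, so the change is a bound: M17 was at least 35.7-fold higher against the highest trp reading of 3.84 (limma adjusted p = 2.92e-10). PAP85 (AT3G22640) rose by 0.30 and M10 (AT2G41280) by 0.35, whereas LEA4-5 (AT5G06760) fell by 0.25 but stood at 0.14 on the bioB, bioC and bioD scale. Without wild-type replicate 3, 2 genes of this list were called lower. On the bioB, bioC and bioD scale 4 were higher and 0 lower, where 17406 of all 22746 plant probe sets were called higher. The list's mean log2 signal was 5.36 to 5.48 in SPT4-R3, against 4.27 to 4.34 in wild type, a gap that M17 carries: without it the 4 other genes averaged 4.47 to 4.56 in SPT4-R3, against 4.42 to 4.5 in wild type. Of 3 nectary and flower genes only JMT (AT1G19640), a jasmonate methyltransferase, was called, at -0.29, and stood at 0.10 on the bioB, bioC and bioD scale, where the other 2 were called higher. None of 3 root genes passed the limma test, nor an unadjusted p under 0.05, with EXPA7 (AT1G12560) at -0.12 (adjusted p = 0.247) and PYK10 (AT3G09260) at -0.02 (adjusted p = 0.831), both positive on the bioB, bioC and bioD scale (0.28 and 0.38), on which all 3 were called higher. PYK10 was bright, at 11.72 to 11.78 in SPT4-R3 and 11.7 to 11.82 in wild type. The root hair genes were dim, EXPA7 at 4.81 to 4.87 in SPT4-R3 and 4.79 to 5.11 in wild type, and EXPA18 (AT1G62980), added here for its level, at 5.08 to 5.19 in SPT4-R3 and 5.09 to 5.19 in wild type. The part of these tissue genes in the SWEET changes was not tested.

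Genes with the most similar pattern were sought among 1551 genes with a symbol of their own, by the root mean square difference of the 6 log2 signals after centring each gene on its mean. This measure follows mainly the size of the genotype difference, and it is a description over 6 arrays in 2 groups. Nearest to SWEET11 were GSTU18 (AT1G10360), a glutathione transferase, at 0.0541 and P1R1 (AT5G57780) at 0.0690, with differences of -1.83 and -1.86. Nearest to SWEET15 were LHCB4.2 at 0.0248, the light-harvesting gene above, and MCCA (AT1G03090), a subunit of the enzyme that breaks down leucine, at 0.0376, which fell by 1.06. Nearest to SWEET13 were the plastid gene ndhJ at 0.0729 and XERICO (AT2G04240), a gene that promotes abscisic acid accumulation, at 0.0769, with differences of -0.54 and -0.57, both calls lost on the bioB, bioC and bioD scale (-0.15 and -0.18).

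The genes nearest to the 3 uncalled members were not called, which choosing them by a similar difference makes likely. They were LHCB4.3 (AT2G40100) and DOR (AT2G31470) for SWEET9, FIS1B (AT5G12390) and scpl44 (AT1G43780) for SWEET10, and CFM3A (AT3G23070) and the mitochondrial ccb382 for SWEET14, with differences of -0.11 to 0.12. LHCB4.3, DOR and CFM3A turned positive on the bioB, bioC and bioD scale and were called higher there, as were FIS1B (0.51), scpl44 (0.46) and ccb382 (0.39).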

How the data were processed

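Total RNA from 6 samples was labelled and hybridised to 1 ATH1 array each. The deposited values are log2 signals, 1 per probe set and array, as their range shows. They come from Affymetrix Expression Console, per the submitters' processing notes, with an algorithm, background correction and normalization not given in the sources used here. Of 22810 probe sets, 64 array controls were set aside. The annotation gave 1 gene for 13513 probe sets and several for 503. Symbols were updated by Entrez identifier in a RefSeq gene table (TAIR10.1), which held 13436, and of several probe sets for 1 gene the brightest was used.

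All 22746 plant probe sets were fitted with limma 3.58.1 in R 4.3.3 (lmFit, eBayes, two-sided), SPT4-R3 against wild type. On simulated arrays with 22746 probe sets and 200 changed ones it found 8 of 50 changes of 0.25 log2, 40 of 50 of 0.5, 49 of 50 of 1 and 50 of 50 of 2, with 6 false calls. In the data 49.9% of probe sets were called, far more than were changed in the simulation. The adjusted threshold is then less strict, so these rates describe the simulated setting alone. Within-array differences used exact permutation tests. 15 gene lists were described without a list test, and 62 of their 550 entries were measured. Entries that could not be matched to a single gene by symbol count among those not measured.

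Named were all measured members, up to 4 genes per list with the smallest p among those called (otherwise 2), and the 2 genes nearest in pattern to each member. The members and lists were chosen with earlier results of these data known. No sequences were used, since none was in the reference tables, and the planned description of proteins and promoters was left out. Alternatives covered normalization, scaling, filters, limma settings and leaving out arrays. Arrays carry no counts, so their number limits the precision.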

Additional observations from a re-analysis of the deposited data

How the results depend on the processing

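SWEET11 and SWEET15 were lower and past the threshold under all 15 alternatives, at -1.91 to -1.50 and -1.14 to -0.73. SWEET13 kept its direction (-0.65 to -0.18) and lost its call when scaled on the bioB, bioC and bioD controls (-0.18) and in the test against 0.5 log2 (-0.57, adjusted p = 1). On the bioB, bioC and bioD scale SWEET10 gained a call (0.47), SWEET9 and SWEET14 turned to 0.29 and 0.34, and the number of members called higher was 3 in place of 0. On the poly-A scale SWEET9 and SWEET14 stood at 0.043 and 0.093 without a call. Both scalings add a common shift to all genes. Every member has the same SE within such a scale, so these calls do not reflect the spread of each gene. SWEET9, SWEET10 and SWEET14 were among the dimmest 30% of probe sets and gave no value once these were removed. No member changed its call when any 1 array was left out, and every within-array difference kept its sign then and after quantile normalization.

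Same-numbered samples did not deviate together (correlations of -0.24, -0.13 and -0.06), and no SPT4-R3 sample correlated best with its own number. With the replicate number as a block 5663 probe sets were higher and 5007 lower, in place of 6007 and 5344, and each member kept its call (SWEET13 adjusted p = 0.000612). The test against 0.5 log2 left 1200 higher and 1222 lower. The bioB, bioC and bioD scale gave 17406 and 1589, and the poly-A scale 6926 and 2478.

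For the 49 other genes named by the rule above, 652 of 729 combinations of gene and alternative kept direction and side of the threshold. In 55 the call was lost, in 3 it was gained and in 19 the sign changed. On the bioB, bioC and bioD scale QQS stood at 0.22, NOL at 0.20, GID1B at 0.20, JMT at 0.10, LEA4-5 at 0.14, EXPA7 at 0.28, PYK10 at 0.38, SBPASE at 0.027, LHCB4.3 at 0.29, DOR at 0.29 and CFM3A at 0.29. On the poly-A scale EXPA7 stood at 0.033, PYK10 at 0.13, LHCB4.3 at 0.046, DOR at 0.043 and CFM3A at 0.043. PYK10 was at 0.0017 after quantile normalization and between -0.053 and 0.0067 with 1 array left out, positive without replicate 2 of either genotype.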
